A study of Rattus norvegicus with 60 samples.

Results

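The voltage-dependent anion channels and the adenine nucleotide carriers form the route by which ATP, ADP and other metabolites cross the mitochondrial membranes. They were measured here by 6 probe sets of 31042 on the Affymetrix Rat 230 2.0 array. Members were all probe sets whose platform annotation gave Vdac1, Vdac2, Vdac3, Slc25a4 or Slc25a5 alone. Vdac1 had 2 probe sets, here called the brighter and the dimmer after their mean signals, and Vdac2, Vdac3, Slc25a4 and Slc25a5 had 1 each. These are 5 of 14217 named genes. The family was chosen because the brighter probe set of Vdac1 had the lowest p of all probe sets between deltamethrin and permethrin at 1 mg/kg, so values of that comparison, and of both 1 mg/kg groups against vehicle, are given as a description without a test.

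Frontal cortex was taken from 60 male Long-Evans rats, 62 to 64 days old, 6 h after 1 oral gavage in corn oil at 1 mL/kg. Vehicle alone was given to 12 rats, deltamethrin to 8 rats each at 0.3, 1 and 3 mg/kg, and permethrin to 8 rats each at 1, 10 and 100 mg/kg. Each rat had its own array, with no pooling, so n counts rats. The 2 compounds are pyrethroid insecticides, of which deltamethrin carries an α-cyano group and permethrin does not. The paper places 1 mg/kg at the behavioural no-effect level for deltamethrin and below that level for permethrin. The 2 compounds at 1 mg/kg are therefore compared at equal mass and not at equal potency. Values are log2 RMA signals, on which a difference of 1 is a doubling, and a level of one probe set is not comparable with that of another.

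Vdac proteins are pores of the outer mitochondrial membrane that pass nucleotides, metabolites and ions. Slc25a4 (ANT1, abundant in heart, muscle and brain) and Slc25a5 (ANT2, widely expressed) exchange ADP for ATP across the inner membrane. Neurons depend heavily on this exchange, since synaptic activity consumes ATP, and both families have been studied in the permeability transition, an opening of the mitochondrial membranes in stressed cells.

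The arrays fell into 2 groups that the labels do not name, here called array group 1 (24 arrays) and array group 2 (36 arrays), defined by clustering on the first 2 principal components of all probe sets. Array group 1 held 6 vehicle rats and 3 rats of each dose, and array group 2 held 6 and 5, which are the sizes of the 2 dosing cohorts in the study's methods. Every treatment group was present in both. The first component carried 58.02% of the variance, and permethrin 1 mg/kg replicates 1 and 2 had scores of 70.7 and 90.1 on it, of which 90.1 was the highest of all arrays. High scores were not particular to these 2 rats. Permethrin replicate 2 scored 82.1 at 10 mg/kg and 71.2 at 100 mg/kg, and deltamethrin 1 mg/kg replicates 1 and 2 scored 64.2 and 51.3. The 4 measured markers of excitatory neurons and the 5 of neurons in general had mean signals of 8.83 to 13.09, above the median probe set (7.17). Markers of astrocytes (8.30 to 12.46) and oligodendrocytes (10.52 to 13.77) were also above it, and markers of striatal neurons and choroid plexus had means of 8.58 to 11.35 and 5.11 to 8.92. Of 46 marker genes in 10 lists, 0 passed an adjusted p of 0.05 in limma in any tested comparison, as did 0% of all probe sets. By unadjusted p under 0.05 in at least 1 of 6 tested comparisons, 1 of the 46 passed, against 6.14% of all probe sets. The missing calls do not show that the mix of cells was equal between groups. In a bulk tissue, fewer cells of a type and less RNA per cell cannot be told apart.

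Promoters of 4 of the 5 genes were in the RefSeq table (build GRCr8, 250 bases before to 50 after the start). The Vdac1 window lies inside the annotated span of the gene (37029377 to 37060542), so its start is not the outer end of that span. The windows of Slc25a4 and Slc25a5 begin before their spans. The 3 below are shown because Vdac1 is the gene for which the family was chosen, while Slc25a4 and Slc25a5 varied together across rats. All 3 lie on the + strand, and capitals mark GC boxes (GGGCGG) and the TATA core TATAA, searched on both strands.
Vdac1, chr10:37032959-37033258: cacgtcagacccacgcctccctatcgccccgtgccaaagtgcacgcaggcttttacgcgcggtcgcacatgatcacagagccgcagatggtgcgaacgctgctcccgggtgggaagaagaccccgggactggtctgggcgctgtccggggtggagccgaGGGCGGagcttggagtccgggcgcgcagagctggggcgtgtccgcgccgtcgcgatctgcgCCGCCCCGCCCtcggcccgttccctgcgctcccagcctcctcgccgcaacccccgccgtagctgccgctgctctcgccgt
Slc25a4, chr16:52805271-52805570: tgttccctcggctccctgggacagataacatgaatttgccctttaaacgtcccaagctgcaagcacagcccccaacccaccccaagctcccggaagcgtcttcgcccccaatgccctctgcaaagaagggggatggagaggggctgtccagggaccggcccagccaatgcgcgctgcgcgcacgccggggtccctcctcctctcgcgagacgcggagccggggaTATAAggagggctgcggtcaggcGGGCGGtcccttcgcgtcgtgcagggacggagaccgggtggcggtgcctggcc
Slc25a5, chrX:120897366-120897665: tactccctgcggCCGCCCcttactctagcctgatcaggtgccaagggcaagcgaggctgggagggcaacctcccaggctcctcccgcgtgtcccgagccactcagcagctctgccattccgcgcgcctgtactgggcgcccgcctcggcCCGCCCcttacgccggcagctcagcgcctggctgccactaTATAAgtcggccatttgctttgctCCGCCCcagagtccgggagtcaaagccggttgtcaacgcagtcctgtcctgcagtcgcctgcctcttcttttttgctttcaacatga

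The Vdac1 promoter was 72.0% G and C and held 3 GC boxes, of which 2 share a base, and 0 TATA cores. Slc25a4 (67.3%) held 1 GC box and 1 TATA core, and Slc25a5 (64%) held 3 GC boxes and 1 TATA core. Among 33469 promoters of 300 bases the median G and C content was 51.7%, 33.1% held a GC box and 26.2% a TATA core. A match is a description of these letters and not of a factor's binding.

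All 6 probe sets were bright. Their mean signals over 60 arrays ran between 11.12 (the dimmer Vdac1 probe set) and 12.78 (Slc25a4), above the 96th percentile of all probe sets (96.56 for the dimmest). The brighter probe set of Vdac1 varied little, with an SD of 0.095 over 60 arrays, and Vdac3 varied most, with an SD of 0.23.

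Vdac1, the most studied channel of the outer membrane, was highest at 1 mg/kg deltamethrin and lowest at 1 mg/kg permethrin by both of its probe sets. For the brighter probe set, vehicle rats averaged 12.07 ± 0.087 (SD, n = 12), with a lowest value of 11.92, a median of 12.06 and a highest of 12.24. Deltamethrin rats averaged 12.10 ± 0.033 at 0.3 mg/kg, 12.18 ± 0.061 at 1 mg/kg and 12.13 ± 0.041 at 3 mg/kg (SD, n = 8 each). Permethrin rats averaged 11.97 ± 0.136 at 1 mg/kg, 12.05 ± 0.089 at 10 mg/kg and 12.06 ± 0.036 at 100 mg/kg (SD, n = 8 each). The deltamethrin means did not follow dose order, while the permethrin means did among the 3 doses, with vehicle above all of them. All 3 permethrin means lay below vehicle while all 3 deltamethrin means lay above it, although with arrays centred on their medians the 10 and 100 mg/kg permethrin means lay 0.0046 and 0.0062 above vehicle. With the groups ordered by their means, neighbouring means differed by less than the larger of their SDs, though not always by less than the smaller. Every dose group overlapped the vehicle range.

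**Figure D1:**
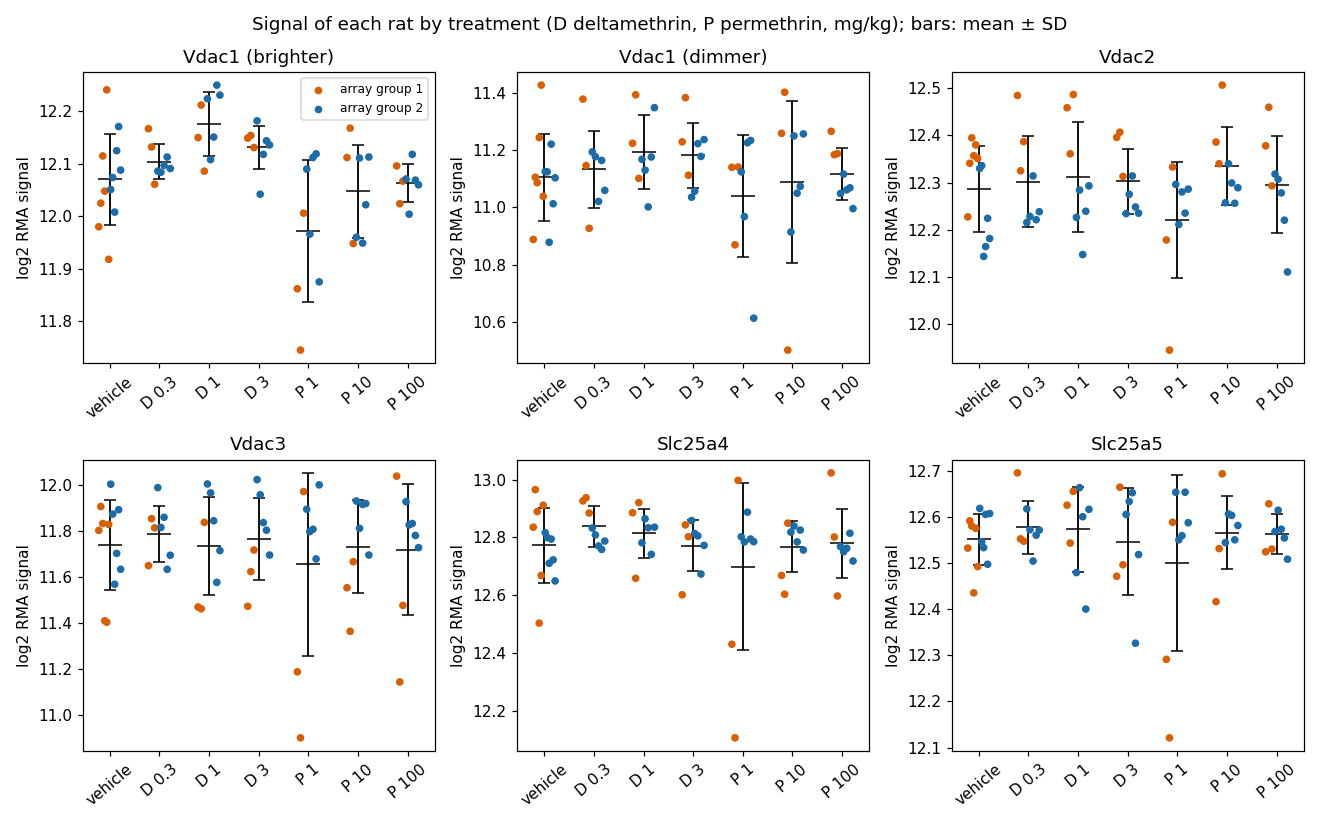
The log2 RMA signal of each rat (points, coloured by array group) is plotted by treatment for the 6 probe sets, with the mean ± SD as bars (vehicle n = 12, other groups n = 8). The lowest group mean lies at 1 mg/kg permethrin in all 6 panels, where 2 rats of array group 1 lie low in most panels.

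On the brighter Vdac1 probe set, the 8 deltamethrin rats at 1 mg/kg had signals of 12.15, 12.21, 12.09, 12.22, 12.11, 12.15, 12.25 and 12.23. The 8 permethrin rats at that dose had 11.86, 11.75, 12.01, 12.09, 11.97, 12.11, 12.12 and 11.88. The groups overlapped, with 6 deltamethrin rats above every permethrin rat and 5 permethrin rats below every deltamethrin rat. The difference, deltamethrin minus permethrin, was 0.20 (SE 0.042), a ratio of 1.15. It ranked 1 of 31042 by p and 699 by size. In this contrast 0% of all probe sets passed an adjusted p of 0.05 in limma and 2.73% an unadjusted p of 0.05. Because it chose the family, no p of a member is given and nothing is read from these shares. Against vehicle, the unadjusted shares were 2.24% at 1 mg/kg deltamethrin and 1.18% at 1 mg/kg permethrin.

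The dimmer Vdac1 probe set averaged 11.19 ± 0.129 at 1 mg/kg deltamethrin and 11.04 ± 0.213 at 1 mg/kg permethrin (SD, n = 8 each). Its difference was 0.15 (SE 0.085), with 2 deltamethrin rats above all permethrin rats. The lowest rat, permethrin replicate 8, was at 10.61, and was also the third lowest on the brighter probe set, at 11.88.

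The other members lay lower in permethrin than in deltamethrin rats by 0.072 to 0.12. Vdac2, a channel that also holds the cell death protein Bak in check, averaged 12.31 ± 0.117 at 1 mg/kg deltamethrin and 12.22 ± 0.122 at 1 mg/kg permethrin. Vdac3, the least studied channel, averaged 11.73 ± 0.213 in deltamethrin rats and 11.65 ± 0.398 in permethrin rats. Slc25a4 averaged 12.81 ± 0.085 in deltamethrin rats and 12.70 ± 0.288 in permethrin rats. Slc25a5 averaged 12.57 ± 0.092 in deltamethrin rats and 12.50 ± 0.191 in permethrin rats (SD, n = 8 each).

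Permethrin 1 mg/kg replicates 1 and 2 carried most of these 4 differences. Slc25a4 was at 12.43 and 12.11 in these 2 rats, against 12.78 to 13.0 in the other 6 rats of the group and 12.66 to 12.92 in deltamethrin rats. Vdac3 was at 11.19 and 10.90 in the same 2 rats and at 11.68 to 12.00 in the other 6. Without the 2 rats the difference, deltamethrin minus permethrin, was -0.124 for Vdac3, -0.027 for Slc25a4, -0.026 for Slc25a5 and 0.038 for Vdac2. It was 0.15 for the brighter Vdac1 probe set and 0.14 for the dimmer one. The median over the 6 probe sets was 0.104 with all rats and 0.006 without these 2.

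**Figure D2:**
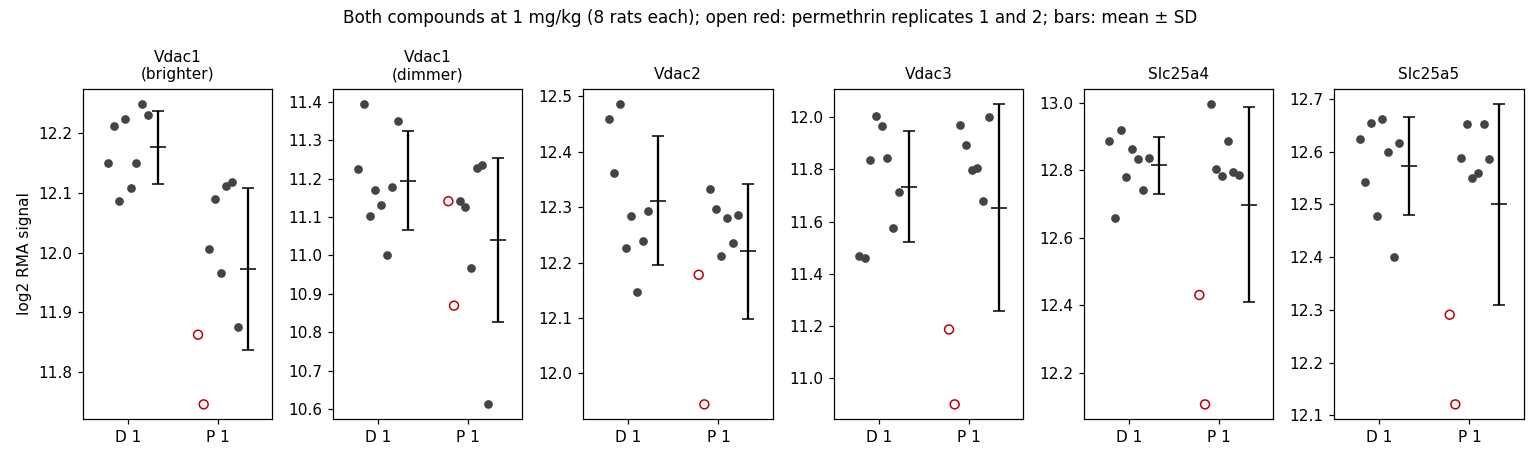
The log2 RMA signal of each rat given 1 mg/kg is shown with deltamethrin (D) left of permethrin (P), 8 rats each, with mean ± SD as bars. Open red circles are permethrin replicates 1 and 2, which are the lowest permethrin rats for Vdac2, Vdac3, Slc25a4, Slc25a5 and the brighter Vdac1 probe set.

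Within array group 1 (3 rats a group), the brighter Vdac1 probe set averaged 12.15 in deltamethrin rats and 11.87 in permethrin rats, a difference of 0.28. Within array group 2 (5 rats a group) it averaged 12.19 and 12.03 in deltamethrin and permethrin rats, a difference of 0.16. For the dimmer Vdac1 probe set the differences were 0.19 and 0.13. In array group 2 the difference was -0.024 for Vdac2, -0.014 for Vdac3, 0.0 for Slc25a4 and -0.049 for Slc25a5, while in array group 1 these were 0.28, 0.24, 0.31 and 0.27. These are the arrays that chose the family, so the Vdac1 values in the 2 array groups are no independent check of its direction.

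The same direction was common among bright probe sets. At 1 mg/kg, 48% of all 31042 probe sets had a higher mean with deltamethrin than with permethrin, against 95.6% of the 1067 probe sets as bright as the dimmest member or brighter. The median difference of those 1067 was 0.1, against 0.104 for the 6 member probe sets. Without permethrin replicates 1 and 2 these medians were 0.046 and 0.006. A difference at least as large as that of the brighter Vdac1 probe set was found in 42 of the 1067 (3.9%). Without the 2 replicates its own difference was 0.148, and 200 (18.7%) reached that smaller value. All 6 member probe sets had their lowest of 7 group means at 1 mg/kg permethrin, as did 18.5% of all probe sets and 72.4% of the bright ones. Over the 1067 bright probe sets, the median signal relative to the vehicle mean was -0.146 and -0.234 in permethrin replicates 1 and 2, and between -0.03 and 0.029 in the other 6 permethrin rats at that dose. The part of this shift in the members' values was not tested.

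Against vehicle, the other doses were tested with limma over all probe sets, without a term for array group or the first principal component. The unadjusted shares of all probe sets given here are smaller than a threshold of 0.05 passes by chance. A missing call therefore does not show that a member was unchanged. At 0.3 mg/kg deltamethrin, 0 of 6 member probe sets passed an adjusted p of 0.05, as did 0% of all probe sets. None of the 6 had an unadjusted p under 0.05 either, against 0.751% of all. Slc25a4 was 0.066 higher (SE 0.065, limma adjusted p = 1) and the brighter Vdac1 probe set 0.034 higher (SE 0.038, limma adjusted p = 1). At 3 mg/kg deltamethrin, 0 of 6 were called at either threshold, against 0% and 1.36% of all probe sets. There the brighter Vdac1 probe set differed from vehicle by 0.062 (95% interval -0.015 to 0.138, limma unadjusted p = 0.111, adjusted p = 1) and the dimmer probe set by 0.078 (SE 0.077).

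Permethrin at 10 and 100 mg/kg gave no called member. At 10 mg/kg, 0 of 6 passed at either threshold, against 0% of all probe sets by adjusted p and 3.48% by unadjusted p. Vdac2 differed from vehicle by 0.048 (SE 0.047, limma adjusted p = 0.961), and the brighter Vdac1 probe set by -0.022 (SE 0.038, limma adjusted p = 0.962). At 100 mg/kg, where 0% and 1.24% of all probe sets passed, the 6 differences ran between -0.019 for Vdac3 and 0.012 for the dimmer Vdac1 probe set. The 95% interval at 100 mg/kg was -0.083 to 0.07 for the brighter Vdac1 probe set and -0.235 to 0.197 for Vdac3, so a change of a given size was bounded more tightly for Vdac1 than for Vdac3.

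**Figure D3:**
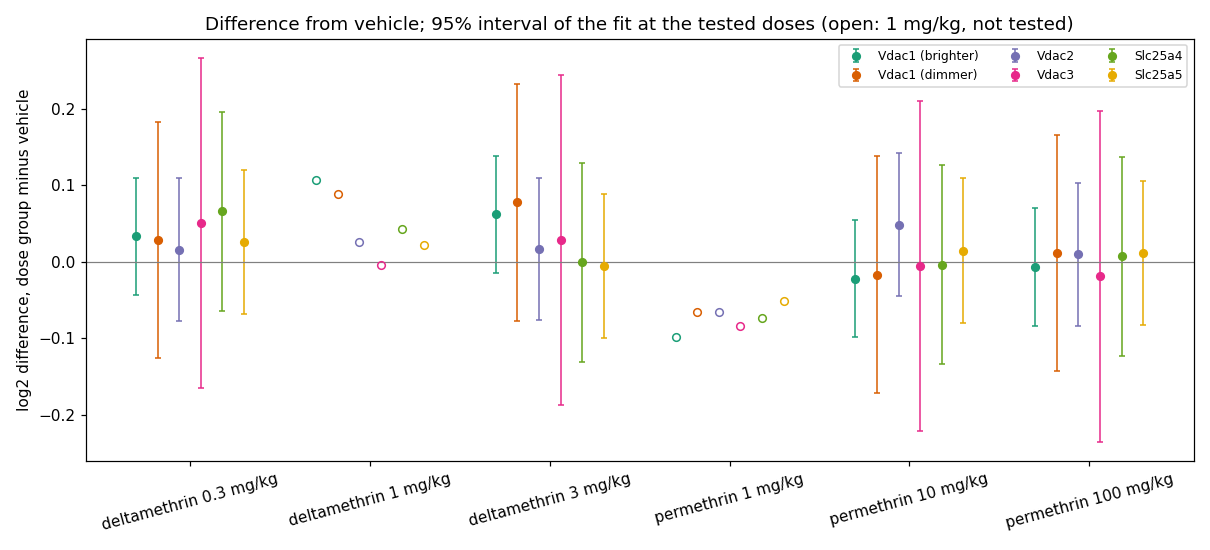
The log2 difference from vehicle (dose group minus vehicle) is plotted for each of the 6 probe sets at the 6 doses, with the 95% interval of the fit over 60 arrays at the tested doses. Open points at 1 mg/kg are descriptions without an interval, and all 6 of them lie below 0 for permethrin. In array group 2 alone, not plotted, 1 mg/kg permethrin minus vehicle was 0.032 for Vdac2, 0.057 for Vdac3, 0.062 for Slc25a4 and 0.032 for Slc25a5. It was -0.054 and -0.045 for the brighter and dimmer Vdac1 probe sets.

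Over any of the 3 deltamethrin doses, the brighter Vdac1 probe set had an unadjusted p of 0.0511 (limma adjusted p = 1), where 0.725% of all probe sets had an unadjusted p under 0.05. Over any permethrin dose it had an unadjusted p of 0.0678 (limma adjusted p = 1), where 1.23% did. The study had also picked this probe set on these arrays for its response to deltamethrin, and the F test holds the 1 mg/kg groups, so neither p is independent of the choice of family. A linear regression on dose gave the brighter Vdac1 probe set a slope of 0.018 per mg/kg deltamethrin (SE 0.012, limma adjusted p = 1) and 0.00029 per mg/kg permethrin (SE 0.00043, limma adjusted p = 1). Both regressions hold the 1 mg/kg arrays as well, so they are not independent of the choice of family either. No member had an unadjusted p under 0.05 in them, while 1.36% of all probe sets for deltamethrin and 0.696% for permethrin did.

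With increasing deltamethrin dose, the 6 probe sets had median differences from vehicle of 0.031, 0.035 and 0.023. With increasing permethrin dose, these medians were -0.07, -0.0049 and 0.0085. Over the 1067 bright probe sets the medians were 0.0283, 0.0319 and 0.025 for deltamethrin and -0.0729, 0.0393 and 0.0141 for permethrin. Over all probe sets it was -0.0055, -0.0095 and -0.0054 for the deltamethrin doses, and -0.0014, -0.00065 and 0.0055 for the permethrin doses. All 6 dose groups share the same 12 vehicle rats.

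Within each array group, 15 pairs of probe sets were compared, 30 relations in all, with Benjamini-Hochberg adjustment. Of these, 3 pairs passed an adjusted p of 0.05 in both array groups. Pairs of other probe sets were not counted, so the relations are not shown to be particular to this family. The arrays at 1 mg/kg are among those compared, so the p values of the 30 relations are not independent of the choice of family. The 2 Vdac1 probe sets varied together, with Pearson r = 0.684 in array group 1 (permutation adjusted p = 0.00366, Spearman rho 0.779, adjusted p = 0.00045) and r = 0.669 in array group 2 (permutation adjusted p = 2e-04, rho 0.527, adjusted p = 0.00847). Without the 2 arrays farthest from the median, r was 0.756 and 0.553. Slc25a4 and Slc25a5 had r = 0.807 in array group 1 (permutation adjusted p = 0.000225, rho 0.59, 0.518 without 2 arrays) and r = 0.52 in array group 2 (permutation adjusted p = 0.00639, rho 0.484, 0.522 without 2 arrays). Vdac3 and Slc25a4 had r = 0.864 in array group 1 (permutation adjusted p = 0.00015, rho 0.865, 0.901 without 2 arrays) and r = 0.484 in array group 2 (permutation adjusted p = 0.00997, rho 0.459, 0.409 without 2 arrays). Both also followed the first principal component, as given below, and the part of it in their relation was not tested.

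Other pairs passed in 1 array group by Pearson r, and of these only Vdac2 with Slc25a5 also passed by Spearman rho. The other pairs named here had rho of 0.27 to 0.36 in the array group where r passed. Their permutation adjusted p by rho was 0.117 to 0.316. The highest r of all 30 was that of Vdac2 with Slc25a5 in array group 1, 0.87 (permutation adjusted p = 0.00015, rho 0.663, 0.616 without 2 arrays), and in array group 2 this pair had r = 0.225 (permutation adjusted p = 0.28). Vdac2 with Slc25a4 had r = 0.688 in array group 1 (permutation adjusted p = 0.00639, 0.19 without 2 arrays), and Vdac3 with Slc25a5 had 0.542 (permutation adjusted p = 0.0183, 0.413 without 2 arrays). Vdac2 with Vdac3 had r = 0.418 in array group 2 (permutation adjusted p = 0.0275, 0.313 without 2 arrays). The brighter Vdac1 probe set and Vdac2 had r = 0.631 in array group 1 (permutation adjusted p = 0.00926), but 0.107 without the 2 farthest arrays and -0.0982 in array group 2 (permutation adjusted p = 0.643). Those 2 arrays were permethrin 1 mg/kg replicates 1 and 2, and that relation rests on them. With Slc25a5, the brighter Vdac1 probe set had r = 0.589 in array group 1 (permutation adjusted p = 0.0131), 0.00584 without 2 arrays, and -0.243 in array group 2 (permutation adjusted p = 0.254).

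Vdac3 and Slc25a4 followed the first principal component in both array groups. This component is an axis of all probe sets that the labels do not explain. Of 12 relations, Vdac3 had r = -0.923 in array group 1 and -0.863 in array group 2 (permutation adjusted p = 6e-05 for both, rho -0.93 and -0.865), and r was -0.906 and -0.851 without the 2 farthest arrays. The unadjusted p of 1e-05 is the smallest that 100000 resamples can give. Slc25a4 had r = -0.769 in array group 1 (permutation adjusted p = 8e-05, rho -0.803, -0.731 without 2 arrays) and -0.462 in array group 2 (permutation adjusted p = 0.0133, rho -0.444, -0.457 without 2 arrays). Vdac2 had r = -0.184 in array group 1 (permutation adjusted p = 0.453). In array group 2 it had r = -0.386 (permutation adjusted p = 0.048, rho -0.359, adjusted p = 0.0781, -0.43 without 2 arrays). The dimmer Vdac1 probe set and Slc25a5 passed in neither array group. The brighter Vdac1 probe set had r = -0.0586 in array group 1 (permutation adjusted p = 0.789) and 0.346 in array group 2 (permutation adjusted p = 0.0667, 0.183 without 2 arrays). The members entered the component along with all other probe sets. The arrays at 1 mg/kg are among those compared here too, so these p values are not independent of the choice of family. The sign of the component was set so that Vdac3 falls along it. Over all 31042 probe sets the median r was 0.437 in array group 1 and 0.262 in array group 2. Over the 1067 bright probe sets the median r was 0.05 in array group 1 and -0.018 in array group 2. Of the bright ones, 49.1% and 51.3% had an r below 0. How many probe sets had an r as large as Vdac3 or Slc25a4, of either sign, was not counted.

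**Figure D4:**
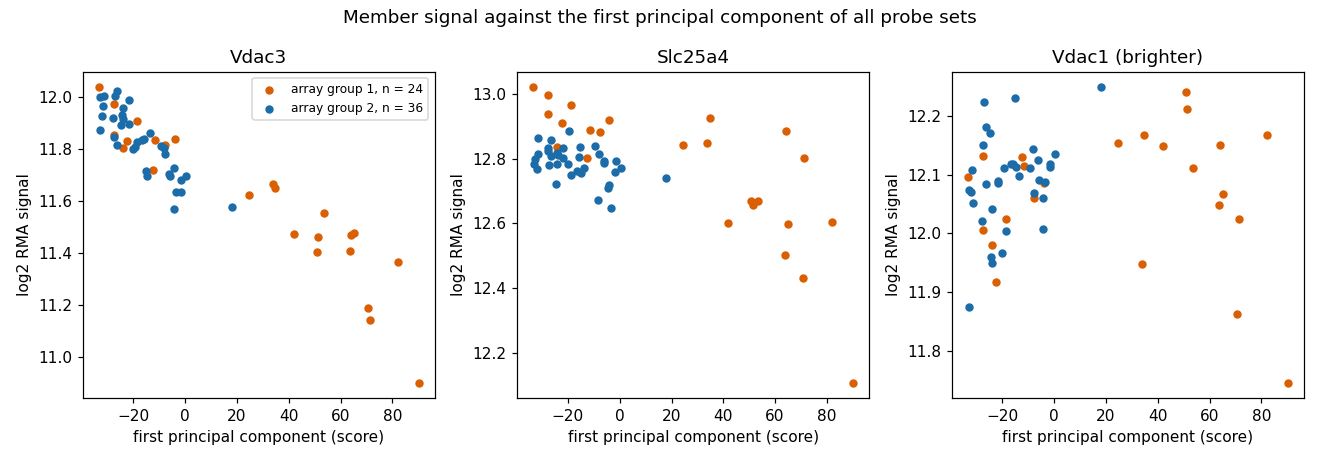
The log2 RMA signal of Vdac3, Slc25a4 and the brighter Vdac1 probe set is plotted against each array's score on the first principal component, by array group (24 and 36 arrays). Vdac3 falls along the component in both array groups (r = -0.923 and -0.863), and the brighter Vdac1 probe set has r = -0.0586 and 0.346.

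The genes whose signal most resembled the brighter Vdac1 probe set over 60 arrays, each centred on its array group's mean, were led by Bcat1, the cytosolic branched-chain aminotransferase (r = 0.69). The other Vdac1 probe set followed at r = 0.68, rank 3 with the brighter probe set itself at rank 1. Next came the phosphatase gene Ptpn21 and the synaptic vesicle chaperone Dnajc5 (0.65 each), the sorting receptor Sort1 and the chromatin remodelling subunit Smarcc2 (0.62 each), the mitochondrial phosphate carrier Slc25a3 (0.61), the chaperone Hsp90ab1 and the neuronal gene Ncdn (0.59 each). Vdac2 had r = 0.38 (rank 503), Slc25a4 and Slc25a5 0.29 each, and Vdac3 0.1 (rank 7759). These genes share the arrays and their normalization, and the 16 arrays at 1 mg/kg are among the 60. Their difference at 1 mg/kg, deltamethrin minus permethrin, ran between 0.1 for Slc25a3 and 0.24 for Smarcc2.

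Genes that work with these proteins were read from 5 lists with 63 measured genes, and 0 passed an adjusted p of 0.05 in limma in the 6 tested comparisons, while 10 (15.9%) had an unadjusted p under 0.05 in at least 1, as did 6.14% of all probe sets and 9.09% of the bright ones. Several of these comparisons share the same arrays, and the difference between these shares was not tested. The tests over any dose, counted here and given for single genes below, hold the 1 mg/kg arrays. Their p values are therefore not independent of the choice of family. Among 14 partners of the outer membrane channel, 0 had an unadjusted p under 0.05 at any tested dose. Hk1, the hexokinase that binds the channel in brain, differed from vehicle by -0.127, 0.03 and -0.016 at 1, 10 and 100 mg/kg permethrin (SE 0.09, limma adjusted p = 1 over any dose). Bcl2, an inhibitor of mitochondrial cell death, differed by -0.043, -0.139 and -0.037 at 0.3, 1 and 3 mg/kg deltamethrin (SE 0.052, limma adjusted p = 1).

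Among 19 other mitochondrial carriers, the median difference at 10 mg/kg permethrin was 0.0561, against -0.000652 over all probe sets and 0.0393 over the bright ones. Of the 19, 3 were higher with an unadjusted p under 0.05, as were 2.36% of all probe sets and 3.94% of the bright ones. Slc25a14, an uncoupling protein homologue expressed in brain, differed by 0.06, 0.149 and 0.11 at 1, 10 and 100 mg/kg permethrin (SE 0.054, limma unadjusted p = 0.0425, adjusted p = 1 over any dose). Mpc2, a subunit of the pyruvate carrier, differed by 0.188, 0.203 and 0.154 at 0.3, 1 and 3 mg/kg deltamethrin (SE 0.083, limma unadjusted p = 0.0491, adjusted p = 1). Slc25a3, which brings phosphate in for ATP synthesis, differed by 0.042, 0.073 and 0.043 at these deltamethrin doses (SE 0.035).

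Among 14 ATP synthase subunits, 4 were higher and 0 lower by unadjusted p at 10 mg/kg permethrin, against the same 2.36% and 3.94%, and their median difference was 0.0881, against 0.0393 over the bright probe sets. Atp5mc3, a subunit of the membrane ring, differed by -0.051, 0.042 and 0.021 at 1, 10 and 100 mg/kg permethrin (SE 0.027, limma unadjusted p = 0.0154, adjusted p = 1 over any dose). At 10 and 100 mg/kg alone its limma unadjusted p was 0.118 and 0.44. Among 10 genes of outer membrane import and sorting, the machinery that inserts Vdac proteins, the median was 0.0871 at 10 mg/kg permethrin and -0.0635 at 1 mg/kg. Tomm22, an import receptor, differed by -0.067, 0.074 and 0.004 at the 3 permethrin doses (SE 0.048). Among 6 energy buffering kinases, Ak5, an adenylate kinase of brain, differed by -0.056, 0.129 and 0.065 at the 3 permethrin doses (SE 0.061, limma unadjusted p = 0.0393, adjusted p = 1). At 1 mg/kg all 14 ATP synthase subunits, all 10 import genes and all 6 kinases had a higher mean in deltamethrin than in permethrin rats, as did 48% of all probe sets and 95.6% of the bright ones.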

How the data were processed

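The deposited values were log2 expression summaries, 1 column per rat, which the authors made with RMA (background correction, quantile normalization and probe summary). Quantile normalization gives the probe values of all arrays 1 distribution before they are summarized, so a shift shared by all genes would not be seen. The summarized values do not share 1 distribution, and their array medians ran between 7.07 and 7.2. Precision is limited by the number of arrays, since an array has no read depth. Gene symbols came from the platform annotation, in which 20826 probe sets have 1 symbol, 436 several and 9780 none. Groups came from the sample labels.

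Dose groups were compared in 1 limma fit of all 60 arrays (limma 3.58.1, R 4.3.3) with Benjamini-Hochberg adjustment over 31042 probe sets, at an adjusted p of 0.05. Dose was regressed within each compound with vehicle. Correlations used 100000 resamples (Python 3.11.15, numpy 2.4.6, scipy 1.17.1), and the fit was tested on simulated data. Named were all member probe sets, genes from up to 5 per list and compound with the lowest p over any dose (not all of these are printed), and the 8 genes most correlated with the brighter Vdac1 probe set. A listed gene entered by its brightest probe set. The members and lists were chosen with earlier results of these data known. Alternatives changed the covariates, arrays, filter, variance prior, scale and centring.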

Additional observations from a re-analysis of the deposited data

Results flagged for a closer look

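In 36 sets of 8 rats (6 probe sets in 6 dose groups), 2 held a rat whose gap to its nearest neighbour, divided by the range, exceeded Dixon's critical value of 0.526, which chance passes in about 1 set in 20. The brighter Vdac1 probe set was at 12.04 in deltamethrin 3 mg/kg replicate 5, below the next rat at 12.12 (gap over range 0.543). Vdac2 was at 11.94 in permethrin 1 mg/kg replicate 2, below the next rat at 12.18 (gap over range 0.601). The second rat had the highest score on the first principal component, 90.1, and the first rat had a score of -24.0.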

How the results depend on the processing

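The count of members called stayed at 0 in each setting run. The Vdac1 difference at 1 mg/kg, whose sign the choice of family favours in any subset of these arrays, was 0.17 to 0.23 leaving out 1 rat at a time, 0.15 without permethrin replicates 1 and 2, 0.28 and 0.16 in array groups 1 and 2 alone, and 0.15 on the dimmer probe set. Over all probe sets, 0 calls became at most 11, at 3 mg/kg deltamethrin with array group and component 1 as covariates (2137 by unadjusted p, against 421).

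The labels do not say whether replicate numbers pair rats, and these values cannot decide it. Of 56 arrays, 17 correlated best with their own number, and the share that chance would give was not computed. The median correlation was 0.369 for equal numbers and 0.346 for others in the same array group, but some equal numbers lie in different array groups. With the replicate block, the Vdac1 difference was 0.20, and calls over any permethrin dose were 1 in place of 0.

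Of 24 differences from vehicle, 20 were smaller than their SE, and 38 values changed sign under an alternative, 37 of them among those 20. The lowest adjusted p of these alternatives was 0.443. The cause was not tested.

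With the replicate block, which is not known to pair rats, differences of other sign were Vdac2 -0.0379 at deltamethrin 0.3 mg/kg and -0.0367 at deltamethrin 3 mg/kg. For permethrin they were Vdac2 -0.00544 at 10 mg/kg, and the brighter Vdac1 probe set 0.0071, the dimmer Vdac1 probe set -0.0139, Vdac2 -0.0442 and Slc25a4 -0.0193 at 100 mg/kg. In array group 2 alone (chosen after seeing the data), the differences of other sign were Slc25a5 -0.00301 at deltamethrin 0.3 mg/kg, and Slc25a4 0.0361 at deltamethrin 3 mg/kg, and the dimmer Vdac1 probe set 0.031, Vdac3 0.0756 and Slc25a4 0.0562 at permethrin 10 mg/kg, and the dimmer Vdac1 probe set -0.0195, Vdac3 0.0399 and Slc25a5 -0.00455 at permethrin 100 mg/kg. With array group as a block, the difference of other sign was Vdac3 -0.000162 at deltamethrin 3 mg/kg. In array group 1 alone (chosen after seeing the data), the differences of other sign were Vdac3 -0.0928 and Slc25a5 0.00964 at deltamethrin 3 mg/kg, and the brighter Vdac1 probe set 0.0217 at permethrin 10 mg/kg, and the brighter Vdac1 probe set 0.00776 at permethrin 100 mg/kg. With component 1 as a covariate, the differences of other sign were Slc25a4 0.00663 at deltamethrin 3 mg/kg, and Vdac3 0.0812 and Slc25a4 0.0322 at permethrin 10 mg/kg, and the dimmer Vdac1 probe set -0.000622 and Vdac3 0.0328 at permethrin 100 mg/kg. With arrays centred on their medians, the differences of other sign were Slc25a4 0.0133 and Slc25a5 0.0088 at deltamethrin 3 mg/kg, and the brighter Vdac1 probe set 0.00457, the dimmer Vdac1 probe set 0.0103, Vdac3 0.021 and Slc25a4 0.023 at permethrin 10 mg/kg, and the brighter Vdac1 probe set 0.00618 at permethrin 100 mg/kg. With array group and component 1 (chosen after seeing the data), the differences of other sign were Slc25a4 0.0284 and Slc25a5 0.000472 at deltamethrin 3 mg/kg, and Vdac3 0.0983 and Slc25a4 0.0686 at permethrin 10 mg/kg, and the dimmer Vdac1 probe set -0.00394 and Vdac3 0.0464 at permethrin 100 mg/kg.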
